A study of Drosophila melanogaster with 8 samples.

Results

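The driver-only embryos of this study are the controls of its 2 experiments. They were 4 of the 8 samples, all whole embryos of Drosophila melanogaster measured by RNA sequencing. Their values were taken from the control columns of both deposited tables and joined by gene symbol over 17321 genes. All 4 were da-Gal4 (BDSC 55849) over OregonR (BDSC 2376), a wild-type stock, with no UAS transgene. Gal4 is a yeast activator that switches on genes joined to its UAS binding sites. In this line it follows the daughterless gene, which is active in most embryonic cells, so that the driver marks no single tissue. Ctrl (n = 2) was collected for experiment 1, beside embryos in which da-Gal4 drove ase, Kr, wor and SoxN (Quad, n = 2). Ctrl-D (n = 2) was collected for experiment 2, beside embryos in which da-Gal4 drove ase-Vp16, SoxN-EnR, wor-EnR and wild-type Kr (QuadD, n = 2). Per the labels, every library came from 50 mg of frozen embryos of stages 8 to 16, with 2 replicates per group. Nothing in the genotype or the stated stage range separates Ctrl from Ctrl-D. Experiment, collection, sequencing lane and deposited table all split the libraries the same way, so these cannot be told apart in any difference below.

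A collection over these stages mixes embryos of different ages. In the younger ones the segments have been set out, neuroblasts (the stem cells of the nervous system) leave the ectoderm and divide, and the Notch pathway chooses between neural and epidermal fates. In the older ones most cells have left the cell cycle, axons and muscles are assembled, and the epidermis secretes the chitin and protein cuticle of the larva. Whole-embryo RNA adds all of these together, and the stage mix of each collection was not measured. In such RNA, fewer cells of a type and less RNA per cell cannot be told apart.

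Both Ctrl-D libraries were shallower than both Ctrl libraries. RPKM are reads scaled by transcript length and by library size. Counted as reads behind 1 RPKM, depth was 85.6% and 82.9% of the deepest library of the study in Ctrl and 41.5% and 39.6% in Ctrl-D. The deepest library, QuadD replicate 1, came from the same experiment as Ctrl-D, and QuadD replicate 2 was at 42.5%. The lowest listed value, here called the floor, was 0.002 RPKM in the table with Ctrl and 0.003 RPKM in the table with Ctrl-D. The file headers name lane 8 for the first and lane 6 for the second. All levels below are set across these 2 tables, each scaled within its own libraries. The p-values below measure the spread between these 4 samples, which the labels call biological replicates without saying more.

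The 4 libraries shared most of their transcriptome. At least 1 RPKM was reached by 9475 genes in all 4 libraries and by 10763 genes in at least 1. In all 4 libraries, 6593 genes reached 10 RPKM, 1116 reached 100 RPKM and 121 reached 1000 RPKM, while 2554 genes were listed at the floor throughout. Of the 6593 genes, 5459 (82.8%) differed by less than 1.5 times between the highest and the lowest library, and 19 differed by more than 4 times.

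Genes of protein synthesis were the most abundant. The gene with the highest mean level was Ef1alpha48D, which encodes the factor that brings charged tRNA to the ribosome, at 8111 and 9033 RPKM in Ctrl and 8832 and 9144 RPKM in Ctrl-D. The 81 listed ribosomal protein genes held between 30.9% and 33.7% of summed RPKM per library, 45 of the 50 highest genes were among them, and 80 of the 81 reached 1000 RPKM in every library. RpL41 led them, at 7551 and 7530.1 RPKM in Ctrl and 8056 and 9112 RPKM in Ctrl-D. Among the 10 highest genes was 1 of the mitochondrial genome, COX3, a subunit of cytochrome c oxidase, at 6070.5 and 5488 RPKM in Ctrl and 4235 and 4772 RPKM in Ctrl-D.

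At the other end of the spread stood genes that hardly varied. By the smallest SD of log2 RPKM among genes of at least 100 RPKM, these were Ent2, eIF-3p66, Clic, nrv2, fz2, Max, koi and Sam-S. Ent2, a nucleoside transporter, was at 252 and 254 RPKM in Ctrl and 249 and 249 RPKM in Ctrl-D. The Wnt receptor gene fz2 was at 195 and 194 RPKM in Ctrl and 194 and 188 RPKM in Ctrl-D. Sam-S, which makes the methyl donor S-adenosylmethionine, was at 470.2 and 459 RPKM in Ctrl and 473 and 479 RPKM in Ctrl-D. None of the 8 passed the test between groups given below. They were chosen for a small spread over the same libraries, so this was fixed in advance.

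Defining markers of the tissues of an embryo were present in all 4 libraries. The pan-neuronal gene elav was at 124 and 107 RPKM in Ctrl and 119 and 112 RPKM in Ctrl-D, and the glial regulator repo was at 26 and 23.4 RPKM in Ctrl and 26 and 26.5 RPKM in Ctrl-D. The tracheal regulator trh was at 48.9 and 44.4 RPKM in Ctrl and 49.6 and 47.7 RPKM in Ctrl-D, and the salivary gland regulator CrebA at 92.7 and 89.5 RPKM in Ctrl and 86.3 and 92.6 RPKM in Ctrl-D. For all 4 genes the groups overlapped. Other markers of these tissues varied. The glial gene moody and the tracheal gene btl were higher in both Ctrl-D libraries, and the neuronal genes nSyb and Syt1 were lower. The groups overlapped for the glial gene loco, the tracheal gene pio and the salivary gland genes sage and PH4alphaSG1. Of the germ line markers, vas was between 5.69 and 6.99 RPKM over the 4 libraries. The amnioserosa marker Ance was at 260.7 and 270.5 RPKM in Ctrl and 288 and 279 RPKM in Ctrl-D. Doc1 was at 51.2 and 51.1 RPKM in Ctrl and 74.7 and 66.9 RPKM in Ctrl-D. C15 was at 25.5 and 27.5 RPKM in Ctrl and 34.1 and 34.2 RPKM in Ctrl-D. In each of these amnioserosa markers both Ctrl-D libraries were above both Ctrl libraries, as in 31.8% of all genes tested. Markers of hemocytes and fat body differed in level. The hemocyte genes Pxn and PPO1 were between 33.7 and 46.2 RPKM and between 61.3 and 87 RPKM, while Hml was between 0.182 and 0.261 RPKM. The fat body lipoprotein gene apolpp was between 175 and 319 RPKM, while the larval fat body genes Lsp2 and Fbp1 did not pass 0.318 and 0.094 RPKM. Genes not expected in embryos were also low. The eggshell gene Cp15 was between 0.254 and 1.10 RPKM, Cp36 and Vm26Aa did not pass 0.112 and 0.672 RPKM, and the larval glue gene Sgs3 did not pass 0.099 RPKM.

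**Figure D1:**
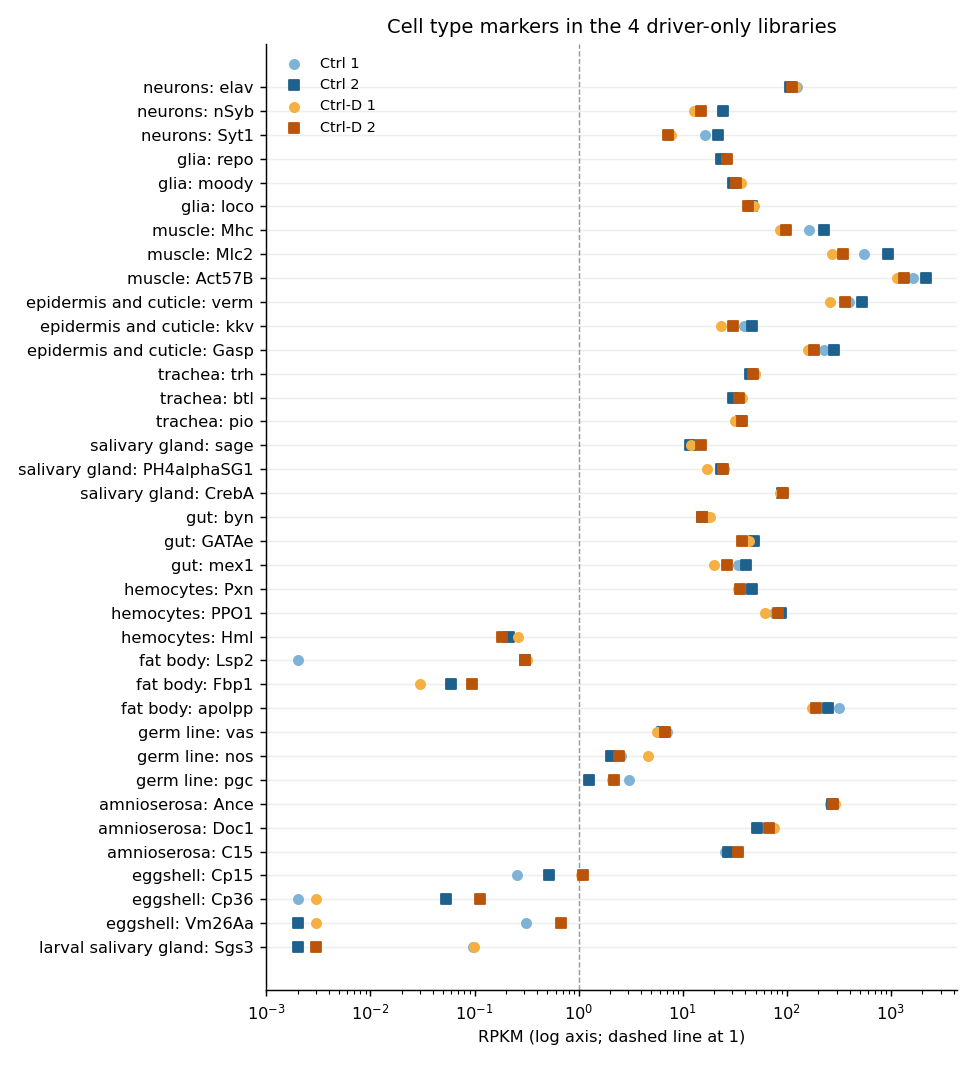
RPKM (log axis) of 3 marker genes per cell type, or 1 for the larval salivary gland, in each of the 4 driver-only libraries; circles are first and squares second libraries. Muscle, cuticle and late neuronal markers lie lower in both Ctrl-D libraries, for example Mhc at 86.8 and 97.7 against 164 and 227 RPKM, while trh, elav and repo lie close together.

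The transcription factor genes that the study misexpressed had a baseline in driver-only embryos. The driver gene's own locus, da, which encodes the common partner of proneural bHLH proteins, was at 109.6 and 113 RPKM in Ctrl and 139.6 and 115 RPKM in Ctrl-D. The neuroblast genes ase and wor were at 34.1 and 28.3 RPKM in Ctrl and 38.9 and 39 RPKM in Ctrl-D, and at 46.3 and 42 RPKM in Ctrl and 60.7 and 60.4 RPKM in Ctrl-D. The neural Sox gene SoxN was at 85.6 and 84 RPKM in Ctrl and 107 and 91.1 RPKM in Ctrl-D, and the gap gene Kr at 46.1 and 35.2 RPKM in Ctrl and 69.2 and 57.5 RPKM in Ctrl-D. In each of these 5 genes both Ctrl-D libraries were above both Ctrl libraries, as in 31.8% of all genes tested, and none passed the test described next. For da the lower Ctrl-D value of 115 RPKM was close to the higher Ctrl value of 113 RPKM. For Kr the log2 difference was 0.63 ± 0.16 (SE, adjusted p = 0.0661), and for wor it was 0.45 ± 0.10 (SE, adjusted p = 0.0592). The segment polarity gene en, whose repressor domain the EnR fusions carry, was at 57.3 and 56.3 RPKM in Ctrl and 82.6 and 75 RPKM in Ctrl-D, with a difference of 0.46 ± 0.10 (SE, adjusted p = 0.0549). The eye pigment transporter gene w, which marks many transgenes, was at 17 and 16.1 RPKM in Ctrl and 14.8 and 15.3 RPKM in Ctrl-D, without a call (adjusted p = 0.517).

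Although the genotype was the same, Ctrl and Ctrl-D differed. Some genes of the cuticle, of muscle and of synapses were lower in Ctrl-D, among them TwdlM, Mhc and Syt1. Some segmentation genes, such as gsb and slp1, the proneural gene l(1)sc and some genes of the E(spl) and Bearded complexes, such as Brd, were higher. Of 10273 genes tested with limma on log2(RPKM + 1), 281 (2.74%) passed at an adjusted p under 0.05, 98 (0.954%) higher and 183 (1.78%) lower in Ctrl-D. In the lists below, members said to rise or fall are those that passed this test, to be set against these shares. The change reached 2-fold on that scale in 19 of the higher genes (0.185% of those tested) and 87 of the lower (0.847%). Genes were tested if they reached 1 RPKM in 2 or more libraries. Of these, 205 had both Ctrl-D libraries under 1 RPKM and could only come out lower. Among them were 40 of the 183 lower genes. Tested genes with both Ctrl libraries under 1 RPKM, which could only come out higher, were not counted. The median difference over all genes tested was 0.02. The groups did not overlap for 3266 genes (31.8%) higher in Ctrl-D and 2997 (29.2%) lower. The number of calls depended on single libraries. With 1 library left out, its group has a single library, which is assumed to vary like the other group, and 1 residual degree of freedom remains. Without Ctrl replicate 2 no gene passed (1256 at an unadjusted p under 0.05), without Ctrl replicate 1 13 higher and 142 lower genes did, without Ctrl-D replicate 1 19 and 45, and without Ctrl-D replicate 2 678 and 758. Of the 281 genes, 241 could be tested without either Ctrl library and 279 without either Ctrl-D library, and all of these kept their direction. Where the groups do not overlap, leaving out 1 library cannot turn a direction, so for such genes this was fixed in advance. Depth was lower in both Ctrl-D libraries, and its part in these differences was not tested; the stage mix was not tested either.

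**Figure D2:**
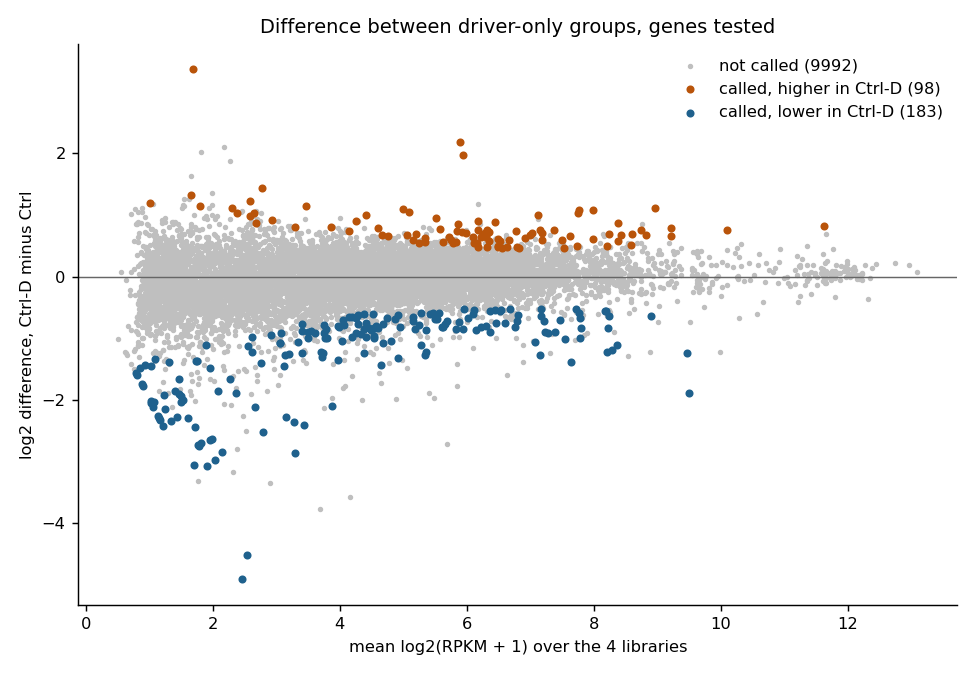
Log2 difference (Ctrl-D minus Ctrl) of the 10273 genes tested against their mean log2(RPKM + 1) over the 4 libraries. The 98 genes called higher in Ctrl-D are orange and the 183 called lower are blue; the largest falls, near -5, lie at low mean levels.

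The largest called falls among named genes included genes of the larval cuticle. Cpr65Ea, which encodes a chitin-binding cuticle protein, was listed at 17.1 and 49.1 RPKM in Ctrl and at the floor of 0.003 RPKM in both Ctrl-D libraries. The fitted log2 difference was -4.91 ± 0.43 (SE, adjusted p = 0.00912); a value fitted against the floor depends on the pseudocount and is no bound. TwdlM, of the Tweedle family of cuticle proteins, was at 22.3 and 32.1 RPKM in Ctrl and 0.105 and 0.33 RPKM in Ctrl-D, a log2 difference of -4.52 ± 0.23 (SE, adjusted p = 0.00216). For both genes each Ctrl library was far above each Ctrl-D library. A two-sided exact permutation test of 2 against 2 libraries cannot go below p = 0.333, so the p-values given are those of the limma fit over all genes.

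Within the Tweedle family, a set of secreted proteins found in insect cuticle, 15 of the 25 members reached the level for testing, and 10 of these 15 fell in Ctrl-D and none rose. Their median log2 difference was -2.40. The libraries of the groups did not overlap in 14, all lower in Ctrl-D, against 29.2% of all genes tested. The summed level of all 25 members was 121 and 346 RPKM in Ctrl and 14.3 and 31.2 RPKM in Ctrl-D. Of the 92 genes named Cpr, Ccp or Lcp, which hold most of the other cuticle proteins, 31 were tested. Of these 10 fell and none rose, with a median of -1.50, and 26 had a negative and 5 a positive difference. Their summed level was 196 and 351 RPKM in Ctrl and 68.1 and 82.2 RPKM in Ctrl-D. Of the tested members, 8 of the 15 Tweedle and 15 of the 31 Cpr, Ccp and Lcp genes had both Ctrl-D libraries under 1 RPKM. They passed the filter on low values only through Ctrl and could only be called lower. In these members the filter also fixed in advance that the groups did not overlap. Among them were 8 of the 10 Tweedle falls and 9 of the 10 Cpr, Ccp and Lcp falls. The counts of falls are thus largely set by the filter, and so in part is the count of Tweedle members without overlap. The medians describe only the members that passed the filter. Both families were set up after their values had been seen. The Lcp65Ag genes are near-identical copies, and how reads were split among them is not given in the sources used here.

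A list of epidermal and cuticle genes gave 7 falls and no rise among 31 tested members, with a median of -0.59. Of the 7 falls, 4 (Cpr65Ea, TwdlM, TwdlL and obst-E) passed the filter on low values only through Ctrl, so the count is partly set by the filter. TwdlL was at 6.95 and 8.56 RPKM in Ctrl and 0.107 and 0.562 RPKM in Ctrl-D, a difference of -2.73 ± 0.25 (SE, adjusted p = 0.0103). The chitin-binding gene obst-E was at 3.9 and 6.25 RPKM in Ctrl and 0.497 and 0.003 RPKM in Ctrl-D, a difference of -2.28 ± 0.30 (SE, adjusted p = 0.0261). The highest member, verm, a chitin deacetylase gene active in epidermis and trachea, was at 393 and 532 RPKM in Ctrl and 259 and 359 RPKM in Ctrl-D, with a difference of -0.58 ± 0.19 (SE, adjusted p = 0.112). Its groups did not overlap, but it did not pass. Another member, ple, the tyrosine hydroxylase gene that starts cuticle tanning and dopamine synthesis, was at 7.91 and 18.5 RPKM in Ctrl and 1.43 and 2.8 RPKM in Ctrl-D and fell by 2.12 ± 0.38 (SE, adjusted p = 0.0461). Outside the list, the serpin gene Spn28Da was at 24.4 and 17.7 RPKM in Ctrl and 3.16 and 3.39 RPKM in Ctrl-D, a difference of -2.35 ± 0.19 (SE, adjusted p = 0.00912). In both genes the higher Ctrl-D library remained below the lower Ctrl library.

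The Osiris genes encode a cluster of insect membrane proteins expressed where cuticle is formed. Of 22 members 15 were tested, none passed, and their median log2 difference was -1.28. In each of the 15 both Ctrl-D libraries were below both Ctrl libraries, against 29.2% of all genes tested. For 2 of the 15 this was fixed in advance, because they passed the filter on low values only through Ctrl. Osi6, the most abundant, was at 1044 and 2279.7 RPKM in Ctrl and 553 and 789 RPKM in Ctrl-D, with a difference of -1.22 ± 0.35 (SE, adjusted p = 0.0841). Osi9 was at 53.7 and 141 RPKM in Ctrl and 16.9 and 27.4 RPKM in Ctrl-D, with a difference of -1.97 ± 0.42 (SE, adjusted p = 0.055). The order of the libraries was the same in all 15: Ctrl replicate 2 highest and Ctrl-D replicate 1 lowest, an order held by 15.8% of all genes tested. The spread between the Ctrl libraries was thus large, and the summed level was 1910 and 4341 RPKM in Ctrl and 955 and 1369.7 RPKM in Ctrl-D.

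**Figure D3:**
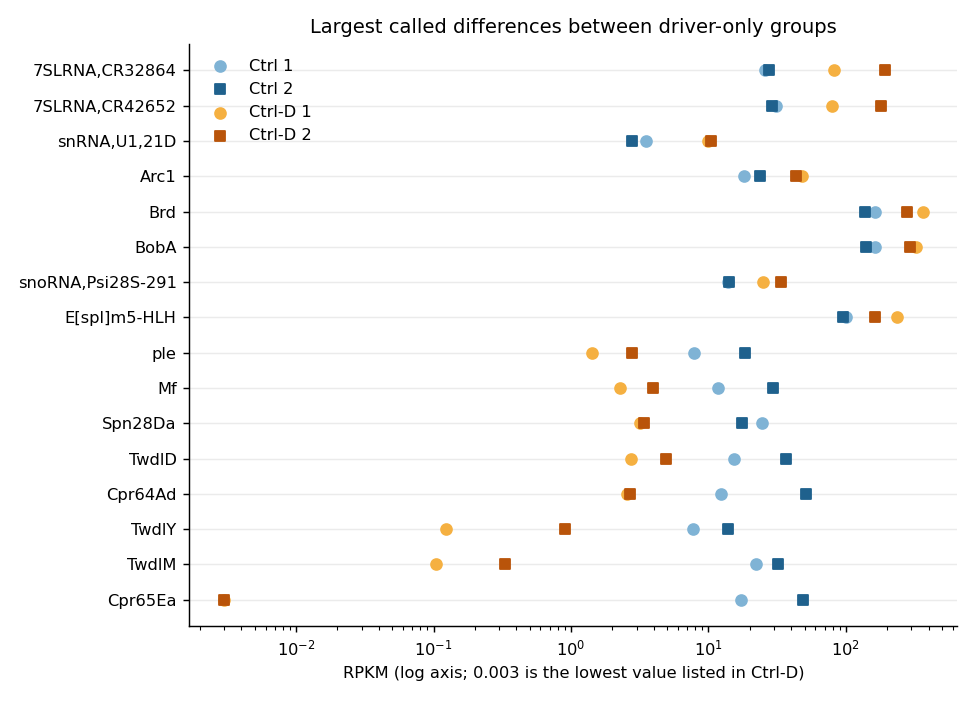
RPKM (log axis) per library of the 8 largest called rises and 8 largest called falls among named genes whose higher group averaged 10 RPKM or more; circles are first and squares second libraries. TwdlM is at 22.3 and 32.1 in Ctrl and 0.105 and 0.33 in Ctrl-D, and both Cpr65Ea values in Ctrl-D lie at the floor.

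Some genes of muscle structure fell in Ctrl-D. Of 24 tested members 4 fell and none rose, and the median was -0.82. The groups did not overlap in 23, all lower in Ctrl-D, against 29.2% of all genes tested. For 2 of these this was fixed in advance, because they passed the filter on low values only through Ctrl. None of the 4 falls was among them. Mhc, the myosin heavy chain of all muscles, was at 164 and 227 RPKM in Ctrl and 86.8 and 97.7 RPKM in Ctrl-D, a difference of -1.06 ± 0.16 (SE, adjusted p = 0.0361). Prm (paramyosin, of the thick filament) was at 47.4 and 81.5 RPKM in Ctrl and 23.3 and 27 RPKM in Ctrl-D, a difference of -1.28 ± 0.23 (SE, adjusted p = 0.0465). The other called members were Mf, which encodes myofilin, and bt, which encodes the giant protein projectin. Both Ctrl values of bt, 13.4 and 12.9 RPKM, were more than double the Ctrl-D values of 4.48 and 5.51 RPKM. The most abundant member, the actin gene Act57B, was at 1628 and 2172 RPKM in Ctrl and 1146 and 1333 RPKM in Ctrl-D and did not pass (adjusted p = 0.0834). Among 25 earlier mesodermal and myogenic regulators tested, 1 rose, none fell, and the median was 0.17. The member that rose was Him, which holds back muscle differentiation, at 79.1 and 78.2 RPKM in Ctrl and 106 and 112 RPKM in Ctrl-D, a difference of 0.47 ± 0.09 (SE, adjusted p = 0.0496).

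Some genes of differentiated neurons also fell. Of 33 tested members 5 fell and none rose, with a median of -0.42. The groups did not overlap in 27 lower and 4 higher, against 29.2% and 31.8% of all genes tested. Syt1, the calcium sensor of synaptic vesicles, was at 16.2 and 21.9 RPKM in Ctrl and 7.71 and 7.24 RPKM in Ctrl-D, a difference of -1.23 ± 0.17 (SE, adjusted p = 0.0291). The vesicle fusion gene nSyb was at 24 and 24.6 RPKM in Ctrl and 12.9 and 15 RPKM in Ctrl-D, a difference of -0.76 ± 0.13 (SE, adjusted p = 0.0394). The stathmin gene stai was at 39.6 and 39.98 RPKM in Ctrl and 22.6 and 21.8 RPKM in Ctrl-D, a difference of -0.81 ± 0.11 (SE, adjusted p = 0.0251), and the amyloid precursor-like gene Appl was at 45.1 and 47.6 RPKM in Ctrl and 28.6 and 32.6 RPKM in Ctrl-D, a difference of -0.58 ± 0.11 (SE, adjusted p = 0.0496). In contrast to some cuticle genes, such as Cpr65Ea, the Ctrl libraries were close together in stai, nSyb and Appl. The axonal gene fax, the most abundant member, was at 1719.9 and 1633 RPKM in Ctrl and 1969.7 and 1657 RPKM in Ctrl-D and did not pass (adjusted p = 0.64). Glial genes had a median of 0.06, with no call among 12. The 10 sensory organ genes tested had a median of -0.03. Both Ctrl-D libraries were higher in 3 and lower in 4, near the 31.8% and 29.2% of all genes tested. The only call was nompA, which links sensory dendrites to the cuticle. It fell by 0.88 ± 0.16 (SE, adjusted p = 0.0441), from 13.4 and 16.5 RPKM to 7.36 and 7.83 RPKM. In contrast, ato was at 8.75 and 8.99 RPKM in Ctrl and 17.4 and 13.6 RPKM in Ctrl-D and did not pass (adjusted p = 0.0576).

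Metabolic and hormone-related genes gave few calls. Of 13 glycolysis genes 1 fell, and the median was -0.44. The groups did not overlap in 11, all lower in Ctrl-D, against 29.2% of all genes tested. The gene that fell was ImpL3, which encodes lactate dehydrogenase and also responds to ecdysone. It was at 267 and 326 RPKM in Ctrl and 157 and 174 RPKM in Ctrl-D, a difference of -0.84 ± 0.12 (SE, adjusted p = 0.033). Gapdh1 was at 62.7 and 91.6 RPKM in Ctrl and 39.1 and 42.1 RPKM in Ctrl-D, with a difference of -0.89 ± 0.17 (SE, adjusted p = 0.0501). Of 25 ecdysone response genes 2 fell, ImpL3 and the nuclear receptor gene Eip75B, and the median was -0.15. Eip75B was at 108 and 99.6 RPKM in Ctrl and 71.2 and 70.4 RPKM in Ctrl-D, a difference of -0.55 ± 0.09 (SE, adjusted p = 0.0426). ImpL1 was at 616 and 725 RPKM in Ctrl and 337 and 474 RPKM in Ctrl-D and did not pass (adjusted p = 0.0622).

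Hsf, the activator of the heat shock genes, fell in Ctrl-D. It was at 201 and 209 RPKM in Ctrl and 108 and 110.1 RPKM in Ctrl-D, a difference of -0.90 ± 0.09 (SE, adjusted p = 0.0125). Both pairs were tight and lay far apart. Of the 23 heat shock genes tested it was the only one that passed, and the list's median was -0.16. The Hsp70 copies differed between libraries of a group instead, as described below.

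Some regulators of early patterning and neural fate rose in Ctrl-D. Of 23 segmentation genes 4 rose and none fell, and the median was 0.24. The groups did not overlap in 15 higher and 2 lower, against 31.8% and 29.2% of all genes tested. The Pax gene gsb, a segment polarity gene of the neuroectoderm, was at 53.2 and 50.5 RPKM in Ctrl and 105 and 90.05 RPKM in Ctrl-D, a difference of 0.90 ± 0.11 (SE, adjusted p = 0.0246). The forkhead gene slp1 was at 58.7 and 62.1 RPKM in Ctrl and 99.8 and 106 RPKM in Ctrl-D, a difference of 0.76 ± 0.09 (SE, adjusted p = 0.0246). Its neighbour slp2 was at 46.8 and 42.1 RPKM in Ctrl and 66.6 and 64.8 RPKM in Ctrl-D, and the pair-rule gene ftz at 6.16 and 6.55 RPKM in Ctrl and 13 and 10.9 RPKM in Ctrl-D, with differences of 0.55 ± 0.10 and 0.81 ± 0.16 (SE, adjusted p = 0.0465 and 0.0496). In the 4 genes both Ctrl-D libraries lay above both Ctrl libraries. Of 16 genes of cellularisation and early zygotic transcription, 1 rose, and the median was 0.44. The groups did not overlap in 14, all higher in Ctrl-D, against 31.8% of all genes tested. The gene that rose was sna, a zinc finger gene of mesoderm and neuroblasts, at 85.1 and 80.7 RPKM in Ctrl and 118 and 115 RPKM in Ctrl-D, a difference of 0.49 ± 0.09 (SE, adjusted p = 0.0489).

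Neuroblast genes had a median of 0.24, and 2 of 32 tested rose and none fell. The groups did not overlap in 18 higher and 4 lower, against 31.8% and 29.2% of all genes tested. The proneural gene l(1)sc was at 34.8 and 28.7 RPKM in Ctrl and 67.5 and 57.7 RPKM in Ctrl-D, a difference of 0.96 ± 0.13 (SE, adjusted p = 0.0286). The second was sna, which stands in both lists. The proneural gene ac was at 10.4 and 10.7 RPKM in Ctrl and 26.2 and 17.5 RPKM in Ctrl-D and did not pass (adjusted p = 0.0521). The cargo adaptor gene mira, the most abundant member, was at 175 and 173 RPKM in Ctrl and 252 and 189.9 RPKM in Ctrl-D, with Ctrl-D replicate 2 close to both Ctrl values.

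The E(spl) and Bearded complexes hold small genes that answer to Notch or to proneural proteins. E(spl) bHLH proteins repress neural fate, and Bearded proteins block the endocytosis of the Notch ligand Delta. All 15 members were tested; 6 rose, none fell, and the median was 0.49. Brd was at 162 and 137 RPKM in Ctrl and 361 and 279 RPKM in Ctrl-D, a difference of 1.09 ± 0.15 (SE, adjusted p = 0.0261). BobA was at 162 and 139.7 RPKM in Ctrl and 323 and 292 RPKM in Ctrl-D, a difference of 1.03 ± 0.11 (SE, adjusted p = 0.0171). The bHLH gene E(spl)m5-HLH was at 100.3 and 95 RPKM in Ctrl and 234 and 163 RPKM in Ctrl-D, a difference of 0.99 ± 0.16 (SE, adjusted p = 0.0386). In all 15 members both Ctrl-D libraries were above both Ctrl libraries, against 31.8% of all genes tested. Their summed level was 3414 and 3357 RPKM in Ctrl and 5445 and 4560.1 RPKM in Ctrl-D. The members were brought together after their values had been seen.

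Genes of the cell cycle differed in the same direction in nearly all members, but few passed. Among 37 tested genes of DNA replication 2 rose, and the median was 0.42. The groups did not overlap in 36, all higher in Ctrl-D, against 31.8% of all genes tested. The histone chaperone gene asf1 was at 66 and 56.6 RPKM in Ctrl and 103 and 94.7 RPKM in Ctrl-D, a difference of 0.68 ± 0.11 (SE, adjusted p = 0.0386). RPA2, a subunit of the protein that coats single-stranded DNA, was at 70.3 and 73.4 RPKM in Ctrl and 118 and 104 RPKM in Ctrl-D, a difference of 0.62 ± 0.10 (SE, adjusted p = 0.0386). Of 36 mitosis genes none passed, and the median was 0.43. The groups did not overlap in 31, all higher in Ctrl-D, against the same 31.8%. The centromeric histone gene cid was at 16.6 and 17.2 RPKM in Ctrl and 27.4 and 25 RPKM in Ctrl-D, with a difference of 0.60 ± 0.12 (SE, adjusted p = 0.0501). The cyclin gene CycA was at 318 and 302 RPKM in Ctrl and 501 and 397 RPKM in Ctrl-D, with a difference of 0.52 ± 0.13 (SE, adjusted p = 0.0666). In 29 of the 37 replication genes and 29 of the 36 mitosis genes Ctrl-D replicate 1 was the highest library and Ctrl replicate 2 the lowest, an order held by 19.3% of all genes tested. Arc1, which encodes a capsid-forming RNA carrier and was also among the 8 largest rises of named genes, was at 18.2 and 23.7 RPKM in Ctrl and 47.9 and 43.1 RPKM in Ctrl-D, a difference of 1.09 ± 0.15 (SE, adjusted p = 0.0261).

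**Figure D4:**
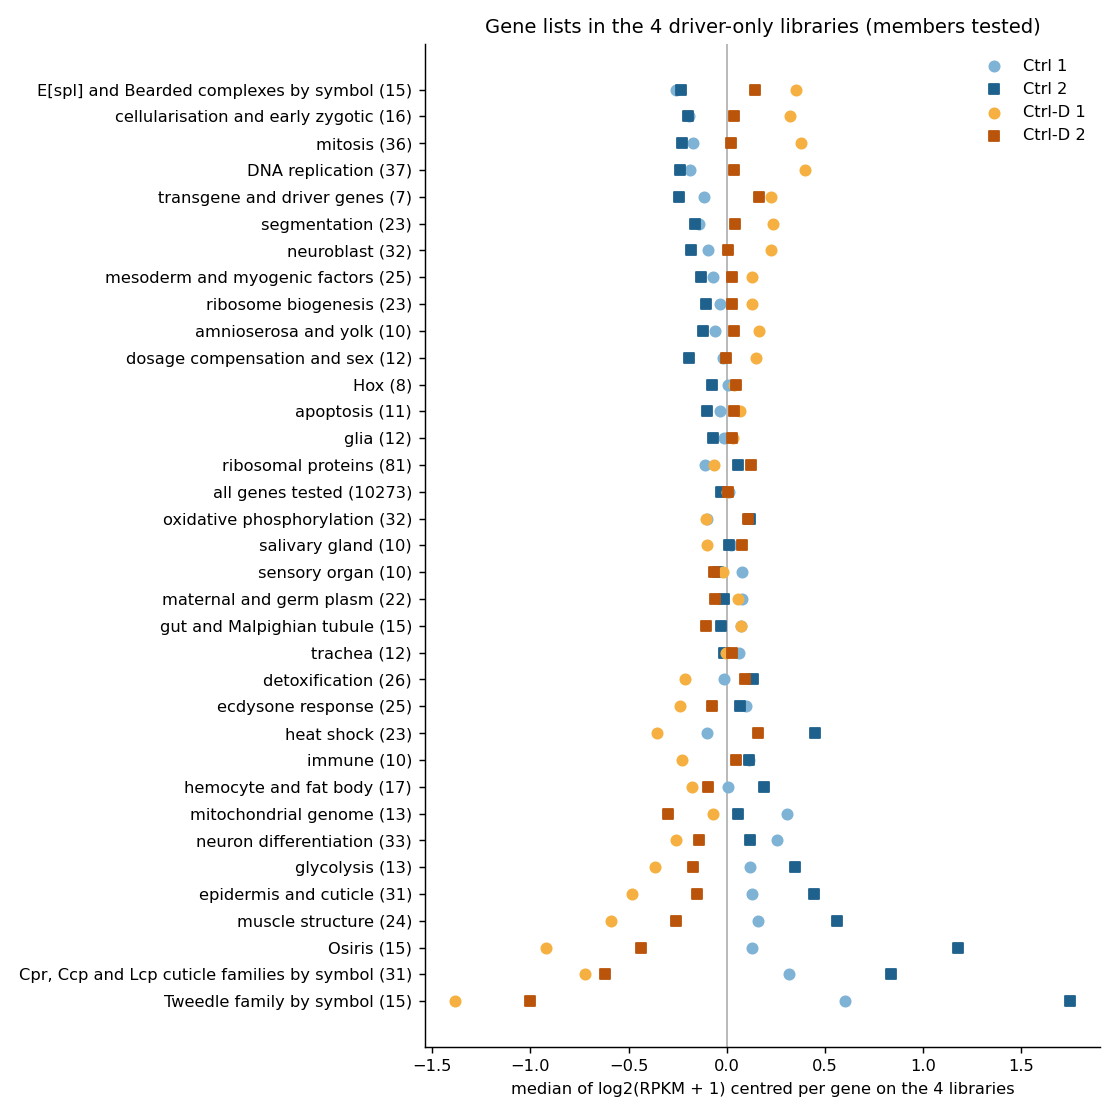
For each gene list (members tested in brackets), the median over members of log2(RPKM + 1), centred per gene on its mean over the 4 libraries, in each library. Cuticle, Osiris and muscle lists run from Ctrl replicate 2 (highest) to Ctrl-D replicate 1 (lowest), replication and mitosis lists run the other way, and the median of all genes tested stays near 0 in all 4.

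Several lists had smaller median differences and no call. The Hox, tracheal, salivary gland and gut lists had medians of 0.10, -0.06, -0.01 and -0.05, and the maternal and germ plasm list -0.03, with no call among 8, 12, 10, 15 and 22 tested members. Medians of amnioserosa, sex and dosage, apoptosis and ribosome biogenesis genes were 0.15, 0.14, 0.10 and 0.16. Those of hemocyte and fat body, immune and detoxification genes were -0.27, -0.18 and -0.14, also with no call. Without overlap, 16 of 23 ribosome biogenesis genes were higher and 1 lower. For amnioserosa it was 6 of 10 higher and 0 lower, and for apoptosis 6 of 11 and 2. Of 17 hemocyte and fat body genes, 5 were higher and 9 lower. Over all genes tested these shares were 31.8% higher and 29.2% lower. The 81 ribosomal protein genes had a median of 0.05 and no call, and the 32 nuclear genes of oxidative phosphorylation had a median near 0 and no call. In contrast, all 13 tested genes of the mitochondrial genome had a negative difference, with a median of -0.36 and no call. ATP6, a subunit of ATP synthase, was at 1073 and 961 RPKM in Ctrl and 697 and 742 RPKM in Ctrl-D, with a difference of -0.50 ± 0.11 (SE, adjusted p = 0.0603).

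Short non-coding RNAs gave the largest rises among named genes. The 7SL RNA of the signal recognition particle was listed under a pair of near-identical copies, so the split between them is uncertain. One, 7SLRNA,CR32864, was at 25.7 and 27.6 RPKM in Ctrl and 82 and 191 RPKM in Ctrl-D, a difference of 2.19 ± 0.34 (SE, adjusted p = 0.0371). The other, 7SLRNA,CR42652, was at 30.9 and 28.8 RPKM in Ctrl and 79 and 182 RPKM in Ctrl-D, a difference of 1.97 ± 0.33 (SE, adjusted p = 0.0394). For both, Ctrl-D replicate 2 was more than double Ctrl-D replicate 1, while the Ctrl pair was tight. Of 23 spliceosomal and related snRNA genes tested 3 rose and none fell, with a median of 0.84, and these too are multi-copy genes. A U1 copy, snRNA,U1,21D, was at 3.5 and 2.78 RPKM in Ctrl and 10.01 and 10.5 RPKM in Ctrl-D, a difference of 1.45 ± 0.17 (SE, adjusted p = 0.0232). Of 170 snoRNA genes tested 3 rose and 1 fell, with a median of 0.27. The pseudouridylation guide snoRNA,Psi28S-291 was at 13.9 and 14.1 RPKM in Ctrl and 24.9 and 33.8 RPKM in Ctrl-D, a difference of 1.00 ± 0.16 (SE, adjusted p = 0.0378). The miRNA genes did not follow, with no rise and 3 falls among 25 tested and a median of -0.43; 2 of the 3 were at the floor in both Ctrl-D libraries. The other, mir-9371, was at 225 and 212 RPKM in Ctrl and 114 and 71.5 RPKM in Ctrl-D, a difference of -1.27 ± 0.20 (SE, adjusted p = 0.0374). Genes this short are recovered according to how RNA was purified and which fragments were kept; these steps are labelled alike for all libraries, and their part in the result was not tested.

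The libraries also differed within each group. On the first principal component of log2(RPKM + 1), which held 71.6% of the variance, Ctrl replicate 2 was at 29.3, Ctrl replicate 1 at 14.1, Ctrl-D replicate 2 at -15.1 and Ctrl-D replicate 1 at -28.3. The SD of the log2 difference over genes was 0.29 within Ctrl, 0.33 within Ctrl-D, and between 0.39 and 0.58 for the 4 pairs across groups. The closest pair across groups was thus Ctrl replicate 1 and Ctrl-D replicate 2. Past 2-fold, 164 genes (1.56%) were higher and 51 (0.485%) lower in Ctrl replicate 2 than in replicate 1, and 98 (0.956%) were higher and 78 (0.761%) lower in Ctrl-D replicate 2 than in replicate 1. With 1 library a side these differences have no test.

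The largest differences inside Ctrl included genes of the cuticle. The Tweedle gene TwdlF was at 16.2 and 129 RPKM in Ctrl and 1.11 and 4.75 RPKM in Ctrl-D, and Ipod, which is in no list, was at 7.32 and 66.3 RPKM in Ctrl and 0.608 and 2.36 RPKM in Ctrl-D. The second Ctrl library was the highest of the 4 for each gene, at 7.95 and 9.06 times the first. The groups did not overlap, but with that spread neither passed (adjusted p = 0.0615 and 0.0719). TwdlG, another of the family, was at 6.28 and 29.5 RPKM in Ctrl and 0.109 and 1.48 RPKM in Ctrl-D.

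Some lists differed between first and second libraries in the same direction in both groups. The median difference of replicate 2 minus replicate 1 in ribosomal protein genes was 0.18 in Ctrl and 0.18 in Ctrl-D, and 74 of 81 were higher in both second libraries, against 27.5% of all genes tested. For the nuclear genes of oxidative phosphorylation it was 0.21 and 0.19, with all 32 higher in both. For heat shock genes it was 0.35 and 0.39, with 19 of 23 higher in both. The chaperone gene Hsp70Aa was at 218 and 381 RPKM in Ctrl and 214 and 305 RPKM in Ctrl-D, and Hsp23 was at 319 and 504 RPKM in Ctrl and 289 and 402 RPKM in Ctrl-D. The second library was higher than the first in each group, and the first libraries were alike across groups for Hsp70Aa. The Hsp70 copies are near-identical, so reads cannot be assigned to 1 of them with confidence. Genes of the mitochondrial genome, whose median difference between the groups is given above, went the other way, with medians of -0.25 and -0.24 and 10 of 13 lower in both second libraries, against 32.6% of all genes tested. The cytochrome b gene CYTB was at 2918 and 2565 RPKM in Ctrl and 2263 and 1882 RPKM in Ctrl-D. DNA replication genes were lower in the second library of Ctrl-D (median -0.37) and close to even in Ctrl (-0.04), and mitosis genes gave -0.34 and -0.08 in the same order.

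**Figure D5:**
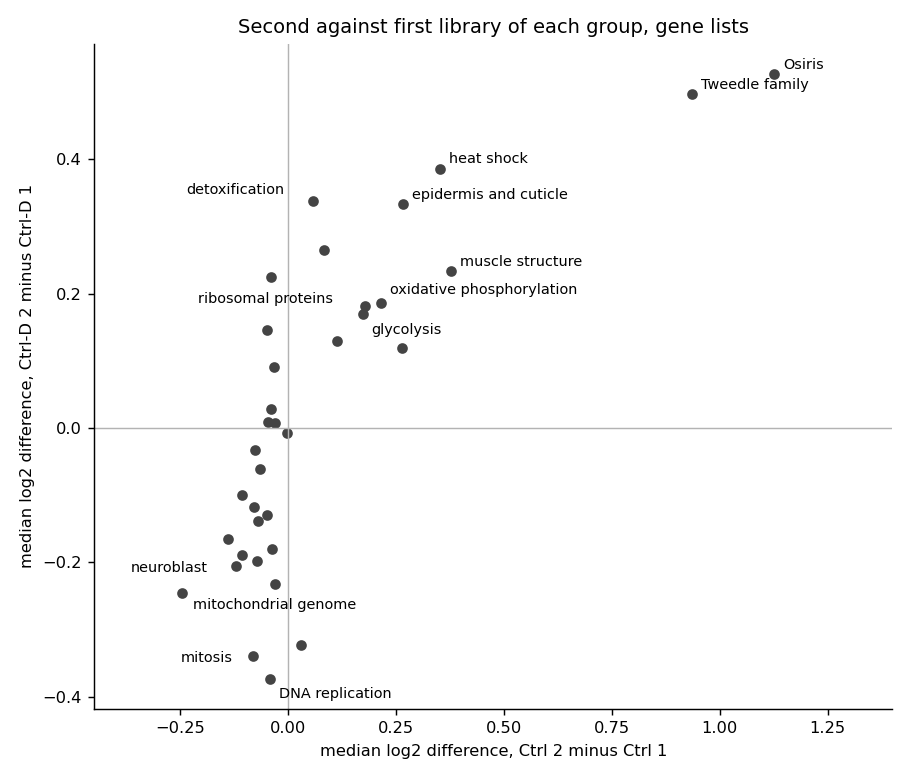
For each gene list, the median log2 difference of the second minus the first library in Ctrl (x axis) and in Ctrl-D (y axis). Heat shock (0.35 and 0.39), ribosomal protein (0.18 and 0.18) and mitochondrial genome (-0.25 and -0.24) lists lie near equal values, while replication and mitosis differ mainly inside Ctrl-D.

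The embryos with transgenes, collected in the same experiments, were set beside these differences. They share no library with the driver-only groups, but QuadD and Quad carry different transgenes, so experiment and transgene cannot be told apart there. Of the 98 genes higher in Ctrl-D, 49 (50.0%) had both QuadD libraries above both Quad libraries, against 25.3% of all genes tested, and 9 had the reverse. Of the 183 genes lower in Ctrl-D, 118 (64.5%) had both QuadD libraries below both Quad libraries, against 31.3% of all genes tested, and 7 had the reverse. Of the cuticle list, QuadD lay below Quad in 26 of 31 tested members and above in none, and of the muscle structure list in 20 of 24 below and 1 above. TwdlM was at 4.99 and 7.41 RPKM in Quad and 0.044 and 0.003 RPKM in QuadD, and Mhc at 179 and 74 RPKM in Quad and 42.6 and 33.6 RPKM in QuadD. Neuron differentiation genes did not follow, with 4 of 33 below and 5 above. Of the replication genes 14 of 37 lay above and 1 below, and of the E(spl) and Bearded genes 9 of 15 above and 4 below. Brd, higher in Ctrl-D, was at 211 and 278 RPKM in Quad and 175 and 187 RPKM in QuadD, the other way round.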

How the data were processed

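The authors deposited 1 table per experiment. Per the file headers, values are total RPKM per gene and library; for the aligner, counting, strand use, genome build and annotation, no statement is given in the sources used here, and coordinates are left out. Deposited columns headed as raw reads, which are no plain counts (414 genes hold a dash), served for depth and for the voom alternative, on genes whose counts were proportional to RPKM within 1% or 1 read. Genes that reached 1 RPKM in 2 or more of the 4 libraries were tested with limma 3.58.1 in R 4.3.3 on log2(RPKM + 1), with a trended moderated test and Benjamini-Hochberg adjustment at 0.05, after a test on simulated data. A log2 difference on this scale understates the change of low genes. Tables were joined in pandas 2.3.3. The gene lists, members and tests were chosen with earlier results of these data known, and no list was tested as a set. Of 813 list members 21 had no symbol in the files. Lists of histone, Y chromosome and transposon control genes had 3, 0 and 0 tested members and are given no median; 1 of the 3 histone matches, His2A, was to the variant gene His2Av. Genes were named by a rule: 7 genes of the design, the 8 largest called rises and falls, up to 4 members with the smallest p and the most abundant member per list, the 10 most abundant genes, the 8 least variable, and the 5 largest differences in each direction between libraries of a group; other named genes were chosen after their values were seen. Alternatives were other pseudocounts, filters, scalings, a fit of all 8 libraries, a replicate block and leaving out each library.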

Additional observations from a re-analysis of the deposited data

How the results depend on the processing

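The counts of called genes depended on the processing. Against 98 higher and 183 lower genes, a pseudocount of 5 gave 54 and 104, a filter at 5 RPKM 255 and 332, quantile normalization 43 and 91, and voom on 3906 genes with whole counts, chosen after seeing the data, 44 and 61. RLE and TMM scaling gave 45 and 55 higher genes, and the fit of all 8 libraries gave 121 lower genes. With no filter on low values 0 higher and 0 lower genes passed limma's test, with 3209 at an unadjusted p under 0.05. Leaving out each library in turn gave 0 to 678 higher and 0 to 758 lower genes, and 9521 to 9632 genes at 1 RPKM in the remaining 3. Of the 281 calls, 51, 0, 51 and 279 were also made without Ctrl replicate 1, Ctrl replicate 2, Ctrl-D replicate 1 and Ctrl-D replicate 2. With the replicate number as a block, 786 higher and 964 lower genes passed, among them all 281. Same-numbered libraries deviated together (r = 0.20 across 10273 genes, which are not independent), but with only 2 pairs, and no label saying that a number marks a shared collection, they share only a number. With a pseudocount of 5 the genes past 2-fold between libraries of a group fell from 215 to 49 in Ctrl and from 176 to 18 in Ctrl-D. For the cause of these shifts, the added pseudocount shrinks low genes by construction, a filter changes the number of genes tested, and otherwise the cause was not tested. Of the 72 genes given with a difference, no alternative changed a direction. Where the groups do not overlap, leaving out 1 library cannot change it. Of 203 genes named by the rule, 24, none of them called, had a value of opposite sign under some alternative. Of 462 list medians under the alternatives, 49 moved by more than the spread between replicates and 18 changed sign. Planned edgeR and DESeq2 fits were not run, because the deposited count columns are incomplete for many genes. Depth in Ctrl-D, below that of Ctrl, limits genes near the floor, where both groups at the floor allow no comparison.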

Other observations

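Among abundant genes outside the lists, several fell in Ctrl-D. They were picked after their values had been seen. Thor, the gene of the translational repressor 4E-BP, was at 1006 and 1169.6 RPKM in Ctrl and 455 and 464 RPKM in Ctrl-D, a log2 difference of -1.24 ± 0.12 (SE, adjusted p = 0.0114). Hph, the prolyl hydroxylase gene of the hypoxia pathway, was at 323 and 319 RPKM in Ctrl and 136 and 110.2 RPKM in Ctrl-D, a difference of -1.38 ± 0.12 (SE, adjusted p = 0.00912). Fpps, the farnesyl pyrophosphate synthase gene, was at 490.2 and 454 RPKM in Ctrl and 218 and 196 RPKM in Ctrl-D, a difference of -1.19 ± 0.10 (SE, adjusted p = 0.00912), and fok was at 426 and 472 RPKM in Ctrl and 198 and 186 RPKM in Ctrl-D, a difference of -1.22 ± 0.10 (SE, adjusted p = 0.00912). Sirup, a complex II assembly factor gene, had the largest fitted difference of the 5 and a wider spread within Ctrl-D, at 1260.2 and 1519 RPKM in Ctrl and 466 and 299 RPKM in Ctrl-D, a difference of -1.89 ± 0.21 (SE, adjusted p = 0.0177). In the transgenic embryos Sirup was at 748 and 552 RPKM in Quad and 330.4 and 125 RPKM in QuadD, and Thor at 786 and 720.4 RPKM in Quad and 526 and 347 RPKM in QuadD. Fpps was at 281 and 240 RPKM in Quad and 168 and 125 RPKM in QuadD, and fok at 191 and 120 RPKM and 112 and 45.8 RPKM. Hph did not follow, at 149 and 160 RPKM in Quad and 173 and 133 RPKM in QuadD. In all 5 the Ctrl libraries lay nearer to each other than to either Ctrl-D library. Without Ctrl replicate 2, where no gene of any kind passed, their log2 differences lay between -1.75 and -1.13.

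Protein-coding genes of chromosome 4, the small dot chromosome, had mostly negative differences, placed there by the RefSeq annotation of the Release 6 assembly. Of 76 tested, 70 had a negative difference, 6 fell and none rose, and the median was -0.26. Over all 10273 genes tested, 4936 had a negative difference, 1.78% fell and 0.954% rose. The groups did not overlap in 46 lower and 1 higher, against 29.2% and 31.8% of all genes tested. The medians of the other chromosome arms lay between 0.00 and 0.05. The 6 were bt, Mitf, Thd1, CG1674, CG33521 and CG33978. Of these, bt is the projectin gene of muscle, and Thd1, a DNA glycosylase gene, was at 34.7 and 30.4 RPKM in Ctrl and 18.3 and 19.1 RPKM in Ctrl-D. In the transgenic embryos 53 of the 76 had both QuadD libraries below both Quad libraries and 4 the reverse, against 31.3% and 25.3% of all genes tested. Chromosome 4 was looked at after the values had been seen.

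The antisense RNA gene CR45869 was listed at the floor in both Ctrl libraries and at 8.77 and 9.86 RPKM in Ctrl-D. It was at 10.03 and 0.002 RPKM in Quad and 9.33 and 8.7 RPKM in QuadD, so 1 Quad library was also at the floor. No source used here says whether counting used strand, so reads of overlapping genes cannot be told apart.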
